A study of Mus musculus with 24 samples.

Results

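Inhibitory receptors are surface proteins that dampen T cell activation. Followed here were 10 genes listed with them: Pdcd1, Ctla4, Btla, Lag3, Havcr2, Tigit, Cd160, Cd101, Lilrb4a and its close relative Lilrb4b. The members were taken by gene symbol from a deposited table of 56748 genes, in which all 10 were found. All 10 were also among the 15885 genes that had enough reads to be tested. An activated T cell puts such receptors on its surface after its antigen receptor has signalled, and most of them recruit phosphatases to cytoplasmic tyrosine motifs or compete with activating receptors for a shared ligand. They are known as checkpoints of effector T cells, as constitutive products of regulatory T cells, and as marks of T cells that have become exhausted under lasting stimulation. A transcript level does not give the amount of protein on the cell surface.

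The study measured polyadenylated RNA of wild-type mouse T cells in 24 bulk libraries. CD4+ T cells had been polarized in culture to T helper 1 (Th1), T helper 17 (Th17) or regulatory T (Treg) cells, and CD8+ T cells (CD8) had been activated. Each of the 4 cell types was given the solvent DMSO or 1 of 5 agonists of the kappa-opioid receptor at 0.1 µM for at most 5 days, and there was 1 library for each combination. The agonists derive from perhydroquinoxaline and are known by code names: WMS-83-02 (here WMS-83), WMS-76-04A (WMS-76), WMS-75-13 (WMS-75), WMS-64-07 (WMS-64) and WMS-200-01 (WMS-200). These full codes are those of the treatment protocol and the Th1 labels. In Th17, Treg and CD8 the labels give all but WMS-76-04A other final digits, and for 3 CD8 libraries the title and the treatment label disagree on them. Libraries were grouped by the part of the code that the column names share, and whether the final digits mark different compounds or preparations was not given in the sources used here. The title of the Th1 library of WMS-83 names another cell type, but its source, its cell type label and its column name all read Th1, which was used here. The cells were made in culture from purified T cells, and the age, sex and number of the mice were not given in the sources used here.

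Libraries held between 15188284 and 21946887 counted reads. Transcripts of ribosomal proteins made up 2.36 ± 0.42% (SD, n = 6) of the reads in Treg libraries and 10.8 to 12.2% on average in the other cell types, so the Treg libraries stood apart as a set. Each cell type held markers listed for it. Ifng and Tbx21 averaged 592 and 202 CPM in Th1 (CPM is the reads of a gene per 1e+06 reads of the scaled library). Il17f and Il17a averaged 831 and 144 CPM in Th17, Foxp3 and Ikzf2 282 and 753 CPM in Treg, and Cd8a and Gzmb 389 and 1910 CPM in CD8. Not every listed marker was highest in its own cell type. Of the Th1 list, Ifng, Tbx21 and Il12rb2 were higher in CD8 (1370, 224 and 290 CPM), with Il12rb2 at 255 CPM in Th1. Cxcr3, also of that list, was lowest in Th1 at 16.7 CPM and highest in Treg at 29.9 CPM. Il2ra, of the Treg list, was lowest in Treg at 1070 CPM, against 1270 to 1890 CPM elsewhere. Ccr6, of the Th17 list, averaged 57.1 CPM in Treg and 31.6 CPM in Th17, and Th17 libraries held Cd8a at 84.1 CPM. The 12 myeloid and dendritic markers summed to 12.7 to 28.6 CPM in any library, and the mast cell markers Fcer1a and Ms4a2 had 0 reads in all 24. The column names carry an unexplained number after the letters WT (here WT number): 4 in all Th1 and 2 in all CD8 libraries, but several numbers within Th17 and within Treg. Whether this number is a mouse or a batch was not given in the sources used here, and nothing says that libraries came from separate cultures, so p-values below measure only the spread between these libraries.

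RefSeq promoter windows (GRCm38.p6) were available for 7 members, and those of 5 are shown. In these 5, 92.8 to 99.4% of the variance of log2 CPM lay between cell types, against 91.8% in Havcr2 and 90.8% in Cd160. They are not the 5 with the largest differences. The range of cell type means was 3.03 in Havcr2 and 2.39 in Cd160 on the log2 scale, beside 2 in Ctla4, 1.75 in Btla and 1.45 in Pdcd1. Each line gives the 250 bases upstream of the annotated start, 5′ to 3′ on the gene's own strand, and capitals mark matches to any of 8 short motifs searched on both strands. The motifs were AP-1 (TGANTCA), NFAT (TGGAAA), RUNX (TGTGGT), STAT (TTCNNNGAA), a nuclear receptor half-site (AGGTCA), a cyclic AMP response half-site (TGACG), forkhead (TGTTTAC) and T-box (AGGTGTGA).
Pdcd1 promoter, chr1:94052554-94052803, minus strand: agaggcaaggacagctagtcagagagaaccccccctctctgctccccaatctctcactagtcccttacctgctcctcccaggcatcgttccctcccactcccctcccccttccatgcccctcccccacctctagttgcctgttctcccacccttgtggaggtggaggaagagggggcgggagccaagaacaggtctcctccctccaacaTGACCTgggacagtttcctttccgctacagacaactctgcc
Ctla4 promoter, chr1:60908775-60909024, plus strand: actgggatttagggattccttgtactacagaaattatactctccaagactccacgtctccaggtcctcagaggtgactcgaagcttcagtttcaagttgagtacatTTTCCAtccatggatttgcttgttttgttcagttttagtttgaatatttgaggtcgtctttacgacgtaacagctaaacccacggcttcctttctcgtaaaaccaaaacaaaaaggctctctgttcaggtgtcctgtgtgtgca
Btla promoter, chr16:45224087-45224336, plus strand: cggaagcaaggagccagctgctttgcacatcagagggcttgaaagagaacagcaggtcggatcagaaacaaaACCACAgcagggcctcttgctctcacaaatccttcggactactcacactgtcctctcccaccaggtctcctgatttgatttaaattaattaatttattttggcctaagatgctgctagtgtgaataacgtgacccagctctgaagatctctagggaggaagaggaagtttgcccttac
Tigit promoter, chr16:43664185-43664434, minus strand: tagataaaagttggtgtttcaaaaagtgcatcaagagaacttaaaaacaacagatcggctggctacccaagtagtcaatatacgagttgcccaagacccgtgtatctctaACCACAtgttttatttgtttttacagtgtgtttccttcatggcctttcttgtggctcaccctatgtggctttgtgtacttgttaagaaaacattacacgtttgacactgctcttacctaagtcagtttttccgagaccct
Cd101 promoter, chr3:101029554-101029803, minus strand: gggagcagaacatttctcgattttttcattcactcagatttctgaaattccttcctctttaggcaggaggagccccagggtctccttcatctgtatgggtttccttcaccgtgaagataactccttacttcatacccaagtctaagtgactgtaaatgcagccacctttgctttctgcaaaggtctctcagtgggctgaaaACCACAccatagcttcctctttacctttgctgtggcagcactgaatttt
The capitals are, read on the opposite strand, the RUNX letters in Btla, Tigit and Cd101, the NFAT letters in Ctla4 and the nuclear receptor half-site in Pdcd1. The 30 bases after the start lay in a GENCODE M21 coding transcript in 6 of the members' 8 windows, and did not in those of Tigit and Havcr2. The RUNX letters were in at least 1 window of 5 of the 7 members, namely Btla, Tigit, Cd101, Havcr2 and Cd160, and not in those of Pdcd1 and Ctla4. Among all 32817 promoter windows of that length, 14% held the RUNX letters, 18.6% the NFAT letters and 14% the half-site. A match is a description of letters and not a measured binding site.

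Compared per kilobase of gene length, the members covered a wide range of levels within each cell type. Lag3 was the highest member in Th1, at 122 ± 8.66 CPM per kilobase (SD, n = 6), and in CD8, at 117 ± 6.21. Pdcd1 led in Th17 at 158 ± 18.8 CPM per kilobase and Ctla4 led in Treg at 137 ± 24.9. These leading transcripts lay at the 97.7th to 99.3rd percentile of all tested genes in their cell type. The lowest member was Cd101 in Th1 and CD8, Lilrb4a in Th17 and Lilrb4b in Treg, at 0.138 to 0.772 CPM per kilobase. Lilrb4a and Lilrb4b are given lengths of 5227 and 5439 bases in the deposited table, which counts every annotated exon of each gene.

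**Figure D1:**
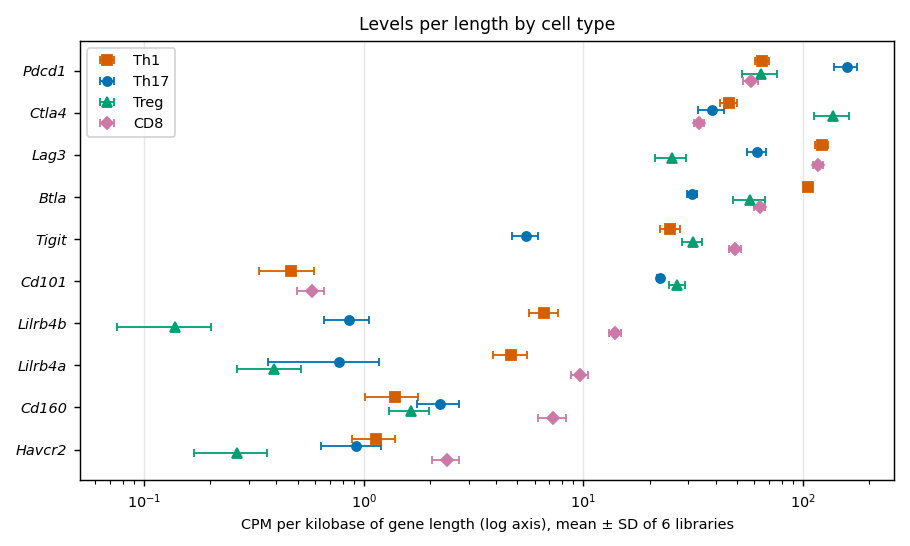
Mean level of each member per kilobase of gene length (horizontal log axis, CPM per kilobase) in Th1 (squares), Th17 (circles), Treg (triangles) and CD8 (diamonds), with bars for 1 SD of 6 libraries. Pdcd1, Ctla4, Lag3 and Btla lie above 20 CPM per kilobase in all 4 cell types, whereas Cd101 splits into Th17 and Treg above 20 and Th1 and CD8 below 1.

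Pdcd1 encodes PD-1, the receptor for PD-L1 and PD-L2 that recruits the phosphatase SHP-2, and it was highest in Th17 cells. Its level ran from 269 through a median of 299 to 352 CPM in Th17, from 111 through 128 to 134.5 CPM in Th1, from 91.4 through 123.5 to 158 CPM in Treg and from 100.1 through 112 to 122 CPM in CD8. The 6 Th17 libraries lay above all 18 others, and the other cell types overlapped one another. Pdcd1 (chromosome 1, 93966027 to 93980278, minus strand, in the coordinates of the deposited table, which names no genome build) was 2.72-fold higher in Th17 than in CD8 (log2 difference 1.45 ± 0.08 SE, adjusted p = 5.31e-14) and 2.46-fold higher than in Treg (adjusted p = 1.67e-13), by edgeR's quasi-likelihood test with Benjamini-Hochberg adjustment over all tested genes, which gives the adjusted p-values of all cell type comparisons here. Th1, Treg and CD8 did not differ beyond their spread, with adjusted p-values of 0.777 for Th1 against Treg, 0.17 for Th1 against CD8 and 0.101 for Treg against CD8. The last of these passed the threshold, with Treg higher, when a gene length offset was used (log2 difference 0.31) and without the DMSO library of Treg (0.22) or of CD8 (0.19).

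Ctla4 encodes CTLA-4, which competes with the costimulator CD28 for CD80 and CD86 and is a constitutive product of regulatory T cells. It was highest in Treg, where the 6 libraries ran from 243 through 343 to 370 CPM. Th1 libraries ran from 92.2 through 111 to 118 CPM, Th17 libraries from 67.5 through 91.6 to 104 CPM and CD8 libraries from 73.5 through 78.9 to 84.3 CPM. No Treg library overlapped another cell type, and Treg exceeded CD8 4.03-fold (log2 difference 2.01 ± 0.10 SE, adjusted p = 3.23e-15). The order below Treg was Th1, Th17, CD8. Th1 exceeded CD8 1.36-fold (adjusted p = 0.00173), while Th17 and CD8 did not differ beyond their spread (adjusted p = 0.124). Th1 passed the threshold against Th17 at a log2 difference of 0.26 ± 0.10 SE (adjusted p = 0.0291), but the call was lost without the Th17 library of WMS-83 (0.19) or the Th1 library of WMS-200 (0.20). Without that Th17 library, or with the WT number as a block, Th17 was called above CD8 (0.26 in both). Ctla4 (chromosome 1, 60926159 to 60954991, plus strand) overlaps the same-strand processed pseudogene Rpl18-ps1, which held 1124 reads in all libraries against 69621 for Ctla4.

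Btla encodes BTLA, a receptor for HVEM of the tumour necrosis factor receptor family, and it was highest in Th1. Its libraries ran from 332.5 through 359 to 374 CPM in Th1, from 206 through 210 to 235 CPM in CD8, from 159 through 191 to 236 CPM in Treg and from 99.6 through 106 to 114 CPM in Th17. All Th1 libraries lay above, and all Th17 libraries below, those of the other cell types, whereas Treg and CD8 overlapped. Th1 exceeded Th17 3.38-fold (log2 difference 1.76 ± 0.07 SE, adjusted p = 3.63e-17). The difference between Treg and CD8 was small, at -0.15 ± 0.07 SE on the log2 scale with an adjusted p of 0.0478. That call was lost with DESeq2's size factors, DESeq2's test, no filter on low counts, a gene length offset or the WT block, and without any of 6 single libraries. Btla lies on chromosome 16 from 45044678 to 45078033 on the plus strand.

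Lag3 encodes LAG-3, a relative of CD4 that binds MHC class II. Its levels were nearly the same in Th1, where libraries ran from 233 through 259 to 277 CPM, and in CD8, where they ran from 230 through 247 to 270 CPM. Th17 libraries ran from 106 through 132 to 144 CPM and Treg libraries from 41.9 through 54.3 to 61.8 CPM. Th1 and CD8 overlapped and did not differ beyond their spread (log2 difference 0.06 with a 95% interval of -0.12 to 0.23, adjusted p = 0.744). Both lay above every Th17 library, and every Th17 library lay above every Treg library. Th1 exceeded Th17 1.98-fold (adjusted p = 4.02e-10) and Treg 4.84-fold (log2 difference 2.28 ± 0.09 SE, adjusted p = 1.74e-17). Lag3 lies on chromosome 6 from 124881324 to 124888668 on the minus strand.

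Havcr2 encodes TIM-3, a receptor for galectin-9 and other ligands, and it was scarce in every cell type, with 11 to 156 reads in a library. Libraries ran from 5.18 through 6.27 to 7.81 CPM in CD8, from 1.93 through 3.24 to 3.91 CPM in Th1, from 1.67 through 2.52 to 3.57 CPM in Th17 and from 0.506 through 0.64 to 1.23 CPM in Treg. CD8 lay above and Treg below all others without overlap, and Th1 overlapped Th17. CD8 exceeded Th1, its nearest neighbour, by 1.08 ± 0.19 SE on the log2 scale (Th1 against CD8, adjusted p = 0.000166). Th1 and Th17 did not differ beyond their spread (adjusted p = 0.22). Havcr2 lies on chromosome 11 from 46345762 to 46372082 on the plus strand.

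Tigit encodes TIGIT, which binds CD155 and competes for it with the activating receptor CD226. Libraries ran from 39.9 through 45.7 to 47.9 CPM in CD8, from 23.4 through 29.7 to 32 CPM in Treg, from 19.4 through 23.1 to 25.2 CPM in Th1 and from 4.02 through 5.08 to 5.79 CPM in Th17. Only Treg and Th1 overlapped. All 6 differences between cell types passed the threshold. The smallest was Treg over Th1 (Th1 against Treg, log2 difference -0.34 ± 0.09 SE, adjusted p = 0.00137) and the largest was Th17 against CD8 (-3.16 ± 0.10 SE, adjusted p = 2.54e-19). With a gene length offset, Th1 against Treg became -0.73 ± 0.09 SE and Treg against CD8, -0.64 ± 0.09 SE without it, became -0.28 ± 0.09 SE, so that the latter was then the smallest. Tigit lies on chromosome 16 from 43469230 to 43484509 on the minus strand.

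Cd160 encodes a receptor that, like BTLA, binds HVEM, and it was low outside CD8. CD8 libraries ran from 14.8 through 19.6 to 23.1 CPM, Th17 libraries from 4.11 through 5.96 to 7.19 CPM, Treg libraries from 2.88 through 4.63 to 5.21 CPM and Th1 libraries from 2.29 through 3.95 to 4.65 CPM. No CD8 library overlapped another cell type, and the 3 CD4+ types overlapped one another. Th17 against CD8 differed by -1.72 ± 0.17 SE on the log2 scale (adjusted p = 3.37e-09). Th17 exceeded Th1 (Th1 against Th17, -0.68 ± 0.18 SE, adjusted p = 0.00312), and Th1 and Treg did not differ beyond their spread (adjusted p = 0.205). Th17 over Treg (0.42 ± 0.18 SE, adjusted p = 0.0361) was lost with a gene length offset, with the WT block and without any of 5 single libraries. Cd160 (chromosome 3, 96706079 to 96736667, minus strand) overlaps Pdzk1 on the opposite strand, which held 108 reads in all against 3701 for Cd160. The strand setting of the read counting was not given in the sources used here.

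Cd101 encodes an immunoglobulin-family receptor with an inhibitory role in T cells, and it divided the cell types into a high and a low pair. Libraries ran from 80.6 through 89.8 to 99.2 CPM in Treg and from 71.3 through 74.5 to 77.4 CPM in Th17, against 1.61 through 1.86 to 2.36 CPM in CD8 and 0.844 through 1.55 to 2.19 CPM in Th1. The 12 Treg and Th17 libraries lay above 71 CPM and the 12 others below 2.4 CPM. Treg exceeded CD8 46-fold (log2 difference 5.53 ± 0.11 SE, adjusted p = 6.41e-23) and Th17 exceeded CD8 38.5-fold (5.27 ± 0.11 SE, adjusted p = 7.56e-23). Within the low pair Th1 and CD8 did not differ beyond their spread (adjusted p = 0.188). Within the high pair Treg exceeded Th17 by less (Th17 against Treg, -0.26 ± 0.08 SE, adjusted p = 0.00656), and that call was lost with the WT block (-0.19 ± 0.13 SE). Cd101 lies on chromosome 3 from 100900845 to 100936872 on the minus strand.

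Lilrb4a and Lilrb4b are neighbouring genes of the leukocyte immunoglobulin-like receptor family on chromosome 10, at 51367052 to 51372707 and 51356728 to 51362799 on the plus strand. Lilrb4a encodes gp49B, which carries inhibitory tyrosine motifs, and Lilrb4b encodes the close relative gp49A, which lacks such motifs. Lilrb4b libraries ran from 69.7 through 76.3 to 81.3 CPM in CD8, from 26.5 through 38.9 to 40.2 CPM in Th1, from 3.28 through 4.49 to 6.08 CPM in Th17 and from 0.296 through 0.731 to 1.17 CPM in Treg, with no overlap. Lilrb4a had the same order, running from 46.4 through 48.5 to 56.3 CPM in CD8, from 18.9 through 26.4 to 28.3 CPM in Th1, from 1.43 through 3.88 to 6.54 CPM in Th17 and from 1.18 through 2.05 to 2.99 CPM in Treg, where the last pair overlapped. Both passed the threshold in all 6 comparisons. The largest difference of any member between cell types was that of Lilrb4b between Treg and CD8, at -6.66 ± 0.16 SE on the log2 scale (adjusted p = 1.42e-21), although a Treg library held only 6 to 24 of its reads. Lilrb4a and Lilrb4b are also found in myeloid and mast cells, and the myeloid list summed to 25.9 ± 2.06 CPM in CD8, 16.3 ± 1.24 in Th1, 16.4 ± 2.29 in Th17 and 15.9 ± 2.13 in Treg, most of it Cd68, with Clec9a at 0 reads in all but Th1. Their part in the values of the pair was not tested. Mast cell markers, most of it Kit, summed to 14.2 ± 1.32 CPM in CD8 and 4.24 ± 0.83 in Th1, where the pair was highest, and to 22.9 ± 4.14 in Th17 and 62.8 ± 54.5 in Treg, where it was lowest. In bulk RNA, fewer cells that express a gene and less of its RNA per cell cannot be told apart.

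**Figure D2:**
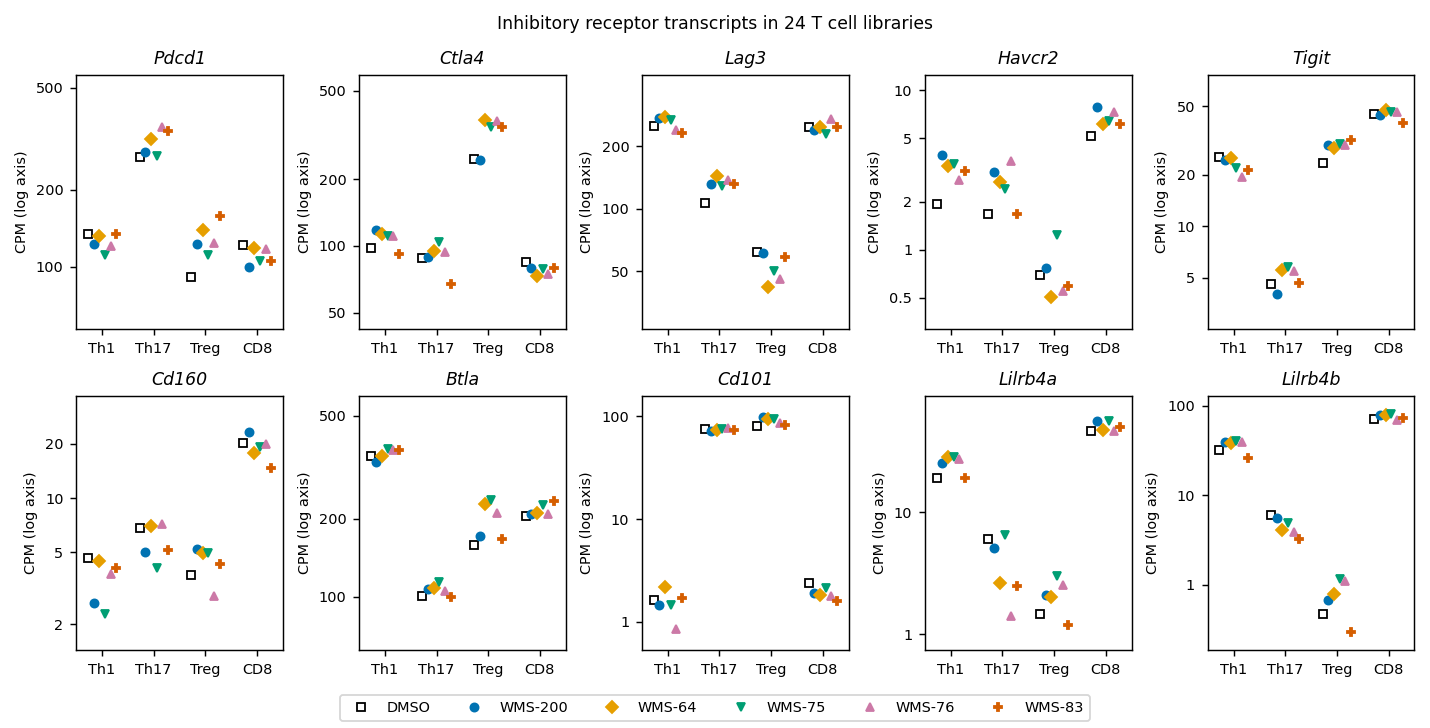
CPM (log axis, separate for each panel) of the 10 members in each of the 24 libraries, by cell type, with open squares for DMSO and filled symbols for the 5 agonists. Libraries of 1 cell type lie close together beside the distances between cell types, such as Cd101 above 71 CPM in Th17 and Treg and below 2.4 CPM in Th1 and CD8.

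The reads of the Lilrb4 pair divided differently in Treg. Lilrb4a took 40.4 ± 1.9% (SD, n = 6) of the pair's reads in Th1, 39.8 ± 1.35% in CD8 and 43.9 ± 10.4% in Th17, but 74.1 ± 3.7% in Treg. The Treg shares, from 69.6 to 80%, lay above all 18 others, which ran from 26.7 to 57.1%. No test was made of this share. Inside Th17 it ran from 26.7% (28 of the pair's reads in Lilrb4a and 77 in Lilrb4b, 95% exact binomial interval 18.5 to 36.2%) with WMS-76 to 57.1% (140 and 105 reads, 50.7 to 63.4%) with WMS-75, so those 2 libraries differed by more than the counting error that such intervals cover. The coding transcripts of the pair are partly alike in the GENCODE M21 annotation: 11.7% of the stretches of 100 bases in Lilrb4a also occur in Lilrb4b. A readthrough gene, Gm49339, shares 1431 of the 1639 stretches of Lilrb4a and 206 of the 1831 of Lilrb4b, and was itself given 9 reads. The authors' counting could therefore have assigned or dropped reads of the 2 genes unevenly, and their values are less certain than those of the 8 other members, none of which shared a stretch of that length with another gene.

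**Figure D3:**
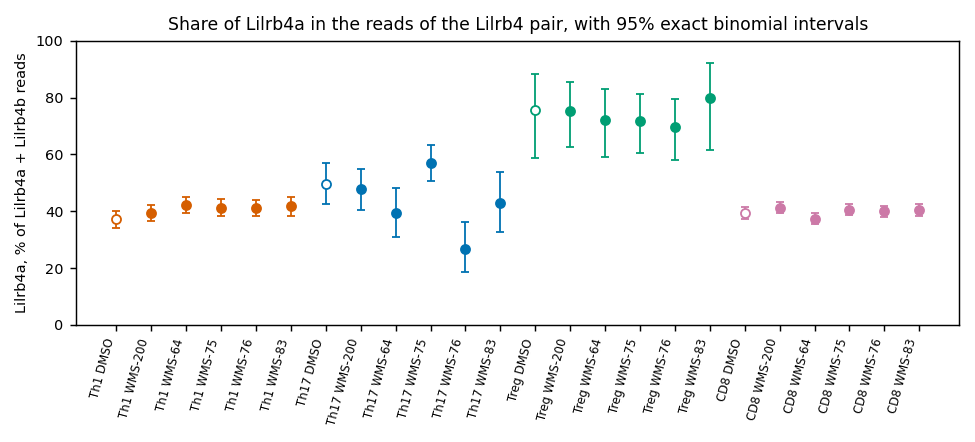
Share of Lilrb4a in the summed reads of Lilrb4a and Lilrb4b (percent, vertical axis) in each of the 24 libraries, with 95% exact binomial intervals for counting error and open symbols for DMSO. The Treg libraries lie between 69.6 and 80% and the others between 26.7 and 57.1%.

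Counted over the members, 10 of 10 passed the threshold (an adjusted p under 0.05) among the 4 cell types together, where 87.4% of all tested genes did. Th1 and Th17 differed in 9 members, 6 higher and 3 lower in Th1 (background 47.3%, with 24.1% higher and 23.2% lower). Th1 and Treg differed in 8 (77.5%), 5 higher (37.3%) and 3 lower (40.1%) in Th1. Th1 and CD8, the closest pair, differed in 7 (16%), with Ctla4 and Btla higher in Th1 (7.26% of genes) and Havcr2, Tigit, Cd160, Lilrb4a and Lilrb4b higher in CD8 (8.69%). Th17 and Treg differed in 10 (74.9%), 6 higher (36.5%) and 4 lower (38.3%) in Th17. Th17 and CD8 differed in 9 (47.1%), of which Pdcd1 and Cd101 were higher (22.8%) and 7 lower (24.3%) in Th17. Treg and CD8 differed in 9 (78%), of which Ctla4 and Cd101 were higher (40.2%) and 7 lower (37.8%) in Treg. In the comparisons with Treg, with their high backgrounds, the members' counts lay near the share of all genes, and these comparisons share libraries with one another. Libraries of Th1 and CD8 did not overlap in 7 members, against 13.7% of all tested genes. Without overlap were also 7 members for Th1 and Th17 (31.7% of genes) and 9 for Th17 and CD8 (32.4%). In the comparisons with Treg they were 7 for Th1 (58.4%), 8 for Th17 (54.1%) and 8 for CD8 (59.2%), so such separation was common among all genes there. The median log2 difference of the members was -0.65 for Th1 against CD8, -1.21 for Th17 against CD8 and -1.39 for Treg against CD8, beside 0.00, 0.00 and 0.08 over all tested genes.

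For each member, the genes whose levels ran most like its own over the 24 libraries were found by Pearson's r of log2 CPM among 11424 genes. Because the libraries fall into 4 cell types, these values describe mainly the order of the cell types. Pdcd1 was most like Cldnd1 (0.98), Mknk2 and Hcls1, Ctla4 most like Itgb8 (0.978), Iqce and Csf2ra, and Btla most like Dnah7a (0.967), Fhip1a and Ccn4. Lag3 was most like Ksr1 (0.989), Pgm1 and Mthfd2, Havcr2 most like Prrg4 (0.95), 4933406I18Rik and the granzyme gene Gzmb, and Tigit most like Dnajc1 (0.973), Sp140 and Ms4a4c. Cd160 was most like the chemokine gene Xcl1 (0.945), Klrk1, which encodes the receptor NKG2D, and Rcn3. Cd101 was most like Skil (0.993), Atp1b1 and Epb41l2. Lilrb4a was most like Lilrb4b (0.966), Tagap and Ifng, and Lilrb4b most like Ifng (0.988), Hk2 and Tnfsf4. Among the members themselves, r was 0.944 between Lag3 and Lilrb4b and 0.894 between Lag3 and Havcr2, and it was -0.934 between Cd101 and Lilrb4a and -0.923 between Pdcd1 and Tigit.

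The agonists were first compared with DMSO over the 4 cell types together, which asks whether kappa-opioid receptor agonists altered the members' transcripts in T cells generally. No member passed the threshold in edgeR's test, and neither did any of the 15885 tested genes (0%). At an unadjusted p under 0.05 there was 1 member and 504 genes. DESeq2 called 0 members and 0 genes, and limma-voom called 0 members and 5 genes. The member was Havcr2, at a log2 difference of 0.49 ± 0.21 SE (95% interval 0.07 to 0.92, edgeR's adjusted p = 0.992). Its level in the DMSO library was 1.93 CPM in Th1, 1.67 CPM in Th17, 0.687 CPM in Treg and 5.18 CPM in CD8. The 5 agonist libraries lay between 2.74 and 3.91 CPM in Th1, between 1.67 and 3.57 CPM in Th17 and between 6.12 and 7.81 CPM in CD8, above DMSO in each case, while in Treg 2 of 5 lay above it. The Th17 library of WMS-83 was nearly level with DMSO, at 1.672 against 1.665 CPM (27 and 26 reads). Havcr2 was thus above its DMSO library in 17 of 20 agonist libraries, but each cell type has a single DMSO library that all 5 share. The share of all tested genes with such a count was not determined here. Btla was above DMSO in 17 of 20 as well, at a smaller log2 difference of 0.13 ± 0.07 SE (adjusted p = 0.992 in edgeR's test). For the other 8 members, between 7 and 14 agonist libraries lay above DMSO, and the estimates ran from -0.14 for Cd160 to 0.12 for Ctla4. The 95% intervals of Pdcd1, Ctla4, Lag3, Tigit, Btla and Cd101 lay within -0.19 and 0.31, while that of Lilrb4a ran from -0.37 to 0.50.

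Inside single cell types the agonists were compared with 1 DMSO library, and no member passed in Th1 (background 0%), Th17 (0.0378%) or CD8 (0.0063%). At an unadjusted p under 0.05 there was 1 member in Th17 and none in Th1 or CD8. Of the 15885 tested genes, 531 did so in Th17, 517 in Th1 and 320 in CD8. The member in Th17 was Lag3, at 106 CPM with DMSO and 128 to 144 CPM with the agonists (log2 difference 0.35 ± 0.14 SE). The WT number of that DMSO library, 2, was not shared by any Th17 agonist library, so the number and the treatment cannot be told apart there. All 6 Th1 libraries share a number and so do all 6 CD8 libraries. The 95% intervals of Pdcd1, Ctla4, Lag3, Tigit and Btla ran from no lower than -0.49 to no higher than 0.52 in Th1 and CD8.

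Treg was the cell type with a called member. Pdcd1 was 91.4 CPM with DMSO, 123 with WMS-200, 139 with WMS-64, 112 with WMS-75, 124 with WMS-76 and 158 with WMS-83. All 5 agonist libraries lay above DMSO, and Pdcd1 rose 1.44-fold (log2 difference 0.52 ± 0.15 SE, adjusted p = 0.0311 in edgeR's test), while 8.82% of all tested genes passed in the same comparison. The call was lost with DESeq2's size factors (0.47) and without the library of WMS-64 (0.49) or of WMS-83 (0.44). It was also lost with the WT number as a replicate block (0.43 ± 0.19 SE). In Treg only the WMS-200 library shares the WT number of DMSO. The blocked value is therefore that of WMS-200 against DMSO, 1 library each, and not of the 5 agonists. Over the members, 9 of 10 estimates were above 0, with a median of 0.36 beside 0.07 over all tested genes. All these estimates share the single DMSO library, and of all genes called in this comparison 1213 were higher and 188 lower.

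The other members in Treg did not pass. The DMSO and WMS-200 libraries carry the number 3 and the 4 others the number 2. The values with the WT block below therefore compare WMS-200 alone with DMSO. Between these 2 sets of libraries the WT number and the compounds cannot be told apart. The sets did not overlap in Ctla4 and Lag3, and the share of all tested genes without overlap was not determined here. Ctla4 was 246 CPM with DMSO and 243 CPM with WMS-200, against 370 with WMS-64, 342 with WMS-75, 364 with WMS-76 and 343 with WMS-83. The libraries numbered 3 lay below all those numbered 2, and the difference of agonists from DMSO was 0.43 ± 0.18 SE (adjusted p = 0.131 in edgeR's test) but -0.02 ± 0.13 SE with the WT block. Lag3 ran the other way, at 61.8 CPM with DMSO and 60.8 CPM with WMS-200 against 41.9 to 58.6 CPM in the 4 others, again without overlap between the numbers. Its difference was -0.27 ± 0.14 SE, and -0.02 ± 0.16 SE with the block. Btla was 159 CPM with DMSO, 171 with WMS-200, 228 with WMS-64, 236 with WMS-75, 210 with WMS-76 and 168 with WMS-83, and its difference of 0.35 ± 0.14 SE became 0.11 ± 0.16 SE. Tigit was 23.4 CPM with DMSO and 28.4 to 32 CPM with the agonists, WMS-200 included, and its difference of 0.36 ± 0.16 SE (adjusted p = 0.162 in edgeR's test) was 0.34 ± 0.20 SE with the block. Without the WMS-200 library Ctla4 (0.52 ± 0.14 SE) and Btla (0.40 ± 0.13 SE) passed as well, in a comparison where DMSO then had a WT number of its own. Both also passed without a filter on low counts (Ctla4 0.49 ± 0.13 SE, Btla 0.40 ± 0.13 SE). Fewer tested genes than the 1401 were called in Treg with the block, which there compares 1 library with 1.

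**Figure D4:**
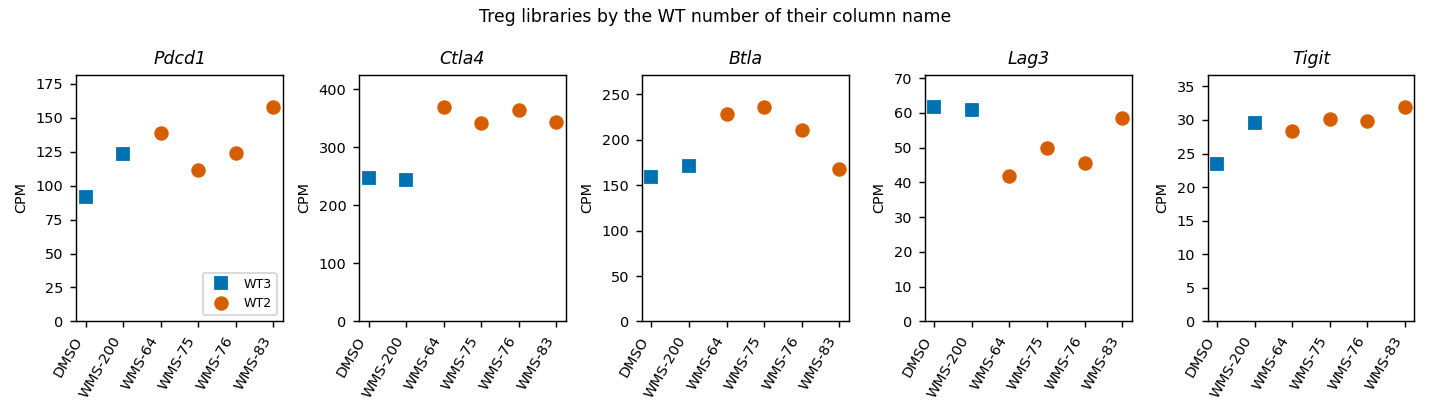
CPM (linear axes from 0) of Pdcd1, Ctla4, Btla, Lag3 and Tigit in the 6 Treg libraries by treatment, with squares for WT number 3 and circles for WT number 2. Ctla4 lies at 246 and 243 CPM in the libraries numbered 3 and between 342 and 370 CPM in those numbered 2, whereas Pdcd1 is lowest with DMSO, at 91.4 CPM.

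Some other measures also differed between the Treg libraries numbered 3 (DMSO and WMS-200) and those numbered 2. Whether they followed the number or the compounds cannot be told apart. The 8 mast cell and basophil markers, nearly all of it Kit, summed to 104 and 156 CPM in the libraries numbered 3 and to 27.5 to 30.5 CPM in those numbered 2, with Fcer1a, Ms4a2, Mcpt4 and Tpsb2 at 0 reads. The NK and gamma delta markers summed to 29.8 and 31.8 CPM against 13 to 19.4 CPM, and the B cell markers to 168 and 165 CPM against 119 to 155 CPM. Ccr6, a chemokine receptor gene of Th17 cells, was 41.6 and 51.5 CPM against 51.8 to 71.9 CPM. Ribosomal protein transcripts made up 1.74% of reads with DMSO and 2.15% with WMS-200, against 2.3 to 2.95%. The Th1 markers summed to 114 and 116 CPM against 91.6 to 109 CPM. The sums of the Treg, CD8, T cell and myeloid lists overlapped between the numbers. The Treg markers, for example, summed to 1880 and 2220 CPM against 2100 to 2310 CPM. The part of these in the members' values was not tested. The agonist effect did not differ between cell types for any member past the threshold (background 0.176%, 28 genes). At an unadjusted p under 0.05 there were 2 of 10 members, beside 2047 of 15885 genes. These members were Pdcd1 (edgeR's adjusted p = 0.201) and Lag3 (adjusted p = 0.35). A rise of Pdcd1 in Treg was therefore not shown to differ from the estimates in the other cell types, which were -0.11 in Th1, 0.22 in Th17 and -0.16 in CD8.

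**Figure D5:**
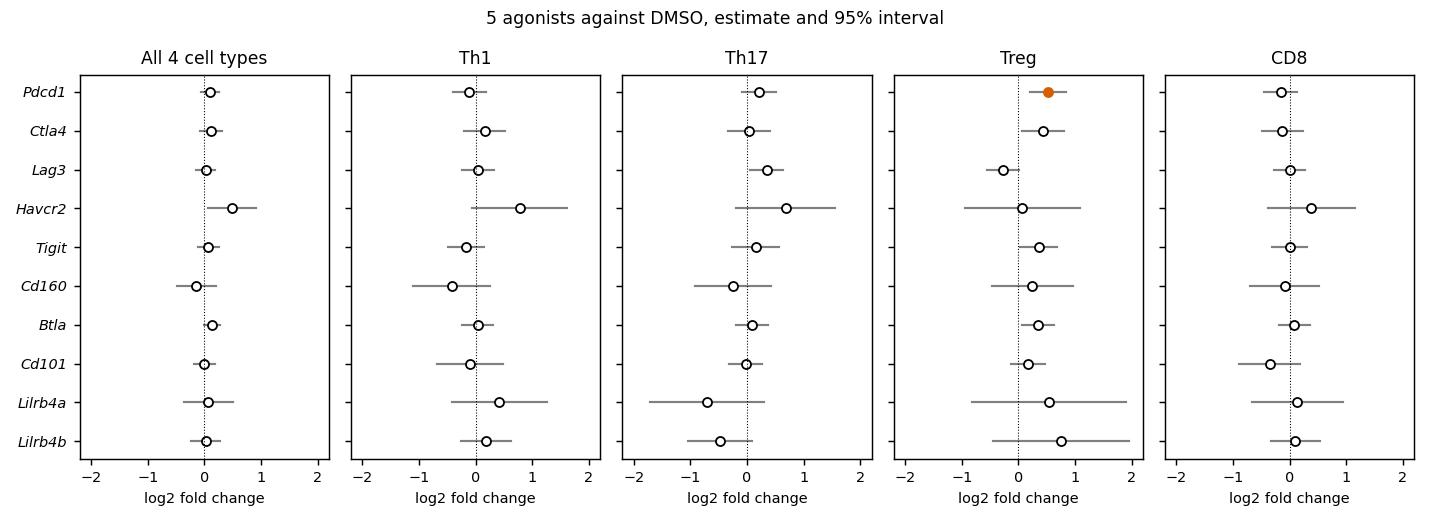
Log2 fold change of the 5 agonists against DMSO for each member, with 95% intervals, over all 4 cell types and inside each, with the filled symbol marking the single call. That call is Pdcd1 in Treg at 0.52, and the intervals of Havcr2 and Lilrb4a are wider than those of Pdcd1, Ctla4, Lag3, Tigit and Btla in every panel.

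The 5 compounds, all given at 0.1 µM, were compared pair by pair over the 4 cell types, with p-values adjusted over the 10 pairs and all genes together (158850 tests). No member differed between any pair of compounds (background 0%), and all adjusted p-values of members were 1 in edgeR's test. At an unadjusted p under 0.05 there were 8 of 100 member tests, beside 3.96% over all genes. Pdcd1 had 3 of them, and was lower with WMS-75 than with WMS-83 by 0.28 ± 0.10 SE on the log2 scale (WMS-75 against WMS-83, 95% interval -0.49 to -0.08). Lilrb4b had 3, and was higher with WMS-75 than with WMS-83 by 0.47 ± 0.16 SE (95% interval 0.15 to 0.80), and Lilrb4a had 1 for the same pair, at 0.69 ± 0.26 SE. Btla had the last, with WMS-200 against WMS-75 at -0.21 ± 0.08 SE. For Lag3 the 95% intervals of all 10 pairs lay within -0.26 and 0.32, and for Tigit within -0.34 and 0.37. For Havcr2 they reached from -0.73 to 0.97 and for Lilrb4a from -0.97 to 1.24, and differences within those limits could not be told from none.

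Each compound was also set against DMSO over the cell types, in 5 comparisons that share the same 4 DMSO libraries. No member passed in any of them (0% of genes in each), and 5 of 50 member tests had an unadjusted p under 0.05, beside 3.68% over all genes. Havcr2 accounted for 3, with estimates of 0.69 ± 0.25 SE for WMS-200, 0.61 ± 0.26 SE for WMS-75 and 0.54 ± 0.25 SE for WMS-76, beside 0.39 ± 0.26 SE for WMS-64 and 0.24 ± 0.26 SE for WMS-83. Btla stood at 0.24 ± 0.08 SE for WMS-75 and Pdcd1 at 0.22 ± 0.10 SE for WMS-83. The lowest adjusted p of any member was 0.752, for Btla. Without the 6 Treg libraries no member passed in any of these comparisons either.

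Genes that work with the receptors were called among the cell types about as often as the 87.4% of all tested genes. Of 15 genes for ligands of the members, 14 were tested and 14 passed. Lgals3, which encodes galectin-3, averaged 304.5 ± 36.5 CPM (SD, n = 6) in Th17 and 12.4 to 37.9 CPM elsewhere, and Ceacam1, a ligand of TIM-3, averaged 24.6 ± 3.18 CPM in Treg and under 4 CPM elsewhere. Nectin3 reached 9.49 ± 1.35 CPM in Th17, and Nectin2, a ligand of TIGIT, reached 2.98 ± 0.72 CPM in Treg. Of 7 genes for receptors that share those ligands or are related to ones that do, 6 were tested and 6 passed. Cd28 averaged 801 CPM in CD8 and 755 CPM in Th1, 372 CPM in Th17 and 194 CPM in Treg, so this competitor of Ctla4 was lowest where Ctla4 was highest. Cd4 averaged 754 CPM in Th1 and 181 CPM in CD8, Icos 364 CPM in Th1 and 114 CPM in Treg, and Cd96, which binds CD155 as TIGIT does, 165 CPM in Treg and 67.5 CPM in Th1.

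Among 11 phosphatases and adaptors, 10 passed, again beside a background of 87.4% that holds for all these lists. Ptpn6, which encodes the phosphatase SHP-1, averaged 328 ± 28.9 CPM in Treg and 157.5 ± 4.42 CPM in Th17. Ptpn22, another phosphatase of T cell receptor signalling, averaged 436 ± 119 CPM in Treg and 190 to 258 CPM elsewhere. Sh2d1a, the adaptor SAP, averaged 15.7 CPM in Th17 and over 40 CPM in Th1 and Treg, and Lrba, which keeps CTLA-4 from degradation, was lowest where Ctla4 was highest, at 58.1 ± 4.9 CPM in Treg against 90.6 to 119 CPM elsewhere. Of 18 transcription factors of the exhaustion program or of T cell types, 17 passed. Foxp3 and Ikzf2 were high in Treg, Maf averaged 425 ± 15.4 CPM in Th17 and 84.8 ± 21.3 CPM in Treg against under 7 CPM in Th1 and CD8, and Tox2 averaged 15.2 CPM in Th17 and 8.07 CPM in Treg against under 1 CPM. Of 20 genes for other inhibitory receptors and related surface proteins, 11 were tested and 11 passed. Cd72 and Entpd1, the latter encoding the ectonucleotidase CD39, were highest in Treg at 85 ± 12.4 and 16.2 ± 3.44 CPM, Cd200 was highest in Th1 at 514 ± 17.9 CPM and Klrc1, which encodes NKG2A, was highest in CD8 at 47.3 ± 4.42 CPM.

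With the agonists, no gene of these lists passed over the 4 cell types together. Inside Treg, 3 of the 14 ligands were called, all higher, among them Cd274, which encodes PD-L1, at 0.50 ± 0.13 SE. Also called were 2 of the 6 sharing or related receptors, 2 of the 11 phosphatases and adaptors and 6 of the 18 transcription factors. Of the 11 other inhibitory receptors and related surface proteins 1 was called, which was Cd200. These counts stand beside the 8.82% over all genes. Ptpn22 fell by 0.67 on the log2 scale (SE 0.14, adjusted p = 0.004 in edgeR's test) and was the only lower call among these lists. Maf rose by 0.80 ± 0.17 SE, Irf4 by 0.63 ± 0.13 SE and Nr4a2 by 0.78 ± 0.20 SE, and all 3 NR4A genes, which are induced by antigen receptor signals, were called. With the WT number as a block none of the genes of these 5 lists was called in Treg. Their medians were then 0.06 to 0.23 beside 0.03 over all tested genes. That blocked comparison was of WMS-200 with DMSO, 1 library each. Called genes other than Maf, Ptpn22, Lgals3, Icos and Cd200 fall outside the naming rule and are named here after their values were seen.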

How the data were processed

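Raw read counts per gene were deposited by the authors as 1 table of 24 libraries with gene lengths. Per the submitters' processing notes, reads were handled with fastp, HISAT2 and featureCounts; versions, build, strand setting and treatment of multi-mapped reads were not given in the sources used here. The starts of all 10 members differ from GENCODE M21 (GRCm38), so coordinates are printed as deposited.

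Here, edgeR 4.0.16 (R 4.3.3) was used with TMM scaling, filterByExpr by cell type (minimum count 10), and robust quasi-likelihood fits, with Benjamini-Hochberg adjustment over 15885 genes and a threshold of 0.05. Cell types, compounds and the agonists together were tested in a model of cell type plus treatment (15 residual degrees of freedom, biological coefficient of variation 0.133), and agonists inside a cell type in a model of cell type by agonist or DMSO (16, 0.127), where the spread among agonist libraries serves as the error of the lone DMSO library. CPM values use TMM-scaled library sizes, and log2 CPM for likeness a prior count of 2. Alternatives were DESeq2 1.42.0 (size factors, or its test), limma-voom (3.58.1), no filter, a gene length offset, the WT number as a block, each library left out in turn, and, for the compounds, no Treg libraries. The WT number does not follow the replicates of a group, and whether it pairs libraries is not known.

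The members and gene lists were chosen with earlier results of these data known. All members are named; from each pathway list the 4 genes with the largest range between cell type means among those called are named, and for each member the 3 genes most like it. A marker gene of the lists is not reported here.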

Additional observations from a re-analysis of the deposited data

Results flagged for a closer look

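Among the 6 Treg libraries, Havcr2 in the library of WMS-75 stood far from the others, at 1.23 CPM with the next highest at 0.77 CPM. Its gap to the next library was 0.634 of the group's whole range, above Dixon's critical value for 6 samples. It held 23 reads, beside 11 to 17 in the other Treg libraries. Of 40 groups examined (10 members in 4 cell types) it was the only such library. Chance flags about 1 group in 20, so 1 flag among 40 is not more than chance gives.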

How the results depend on the processing

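The counts of members called among and between cell types, and the counts of 0 over the cell types and in Th1, Th17 and CD8, stayed within 1.5 times of the reported ones under all alternatives run, with 3 exceptions without a filter on low counts: 1 member was called among the 5 agonists, 1 between pairs of compounds and 1 for a difference of the agonist effect between cell types. In Treg, the 1 member called against DMSO became 0 with DESeq2's size factors, 3 without a filter (Pdcd1, Ctla4 and Btla) and 0 with the WT number as a replicate block, and 0 to 3 with single libraries left out. The block could not be fitted for comparisons with Th1, whose WT number no other cell type shares. Over all genes, the number called in Treg was 1401, 2576 without the WMS-200 library and 930 without that of WMS-83. The block lowered the number in Treg, where it left WMS-200 against DMSO, 1 library each. It raised the number in Th17, where it left WMS-83 against DMSO, shifted by the WT difference among the Treg agonist libraries. Neither blocked comparison is therefore one of the 5 agonists together. For a difference of the agonist effect between cell types, 28 genes were called, 362 by DESeq2's test, 811 without a filter and 8 to 986 with single libraries left out. For the 5 agonists against DMSO, 0 genes became 5 with limma-voom and 26 without a filter. The cause of these shifts was not tested. No called value changed its direction. Depth limits Havcr2, Cd101 in Th1 and CD8, and the Lilrb4 pair in Treg, with at most 156 reads in a library.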
